A study of Mus musculus with 6 samples.

Results

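The respiratory chain genes described here are the genes of the deposited count table whose symbols name a mitochondrially encoded gene, a subunit of complexes I to V of oxidative phosphorylation, an assembly factor of complex I (the Ndufaf symbols) or a cytochrome c. The symbol rule found 91 of the 9583 genes, 9 of them encoded in the mitochondrial genome and 82 in the nucleus. RNA was taken from cultured dissociated neurons of the preoptic area (POA) of the hypothalamus of naive wild-type C57Bl/6J mice aged 6 to 14 weeks by the labels. Neurons were imaged for calcium while the bath was cooled to about 10°C, and single neurons were aspirated and pooled. The cold-sensitive pools held neurons among the strongest 7% of responders to cooling and the cold-insensitive pools those among the weakest 14%, with 3 libraries of each type. No transgene or drug distinguished the types, and every neuron had been dissociated, plated, loaded with dye, cooled and exposed to high potassium. By the methods, neurons of both types were collected from each coverslip and pooled by type over several isolations into a replicate. The methods do not say that equal replicate numbers mark the same isolations. Comparisons within a number below assume it.

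Oxidative phosphorylation passes electrons from NADH (complex I) and succinate (complex II) through ubiquinone, complex III and cytochrome c to oxygen at complex IV. The proton gradient built on the way drives ATP synthesis at complex V, which supplies most of the ATP of neurons. The mitochondrial genome encodes a few hydrophobic core subunits of complexes I, III, IV and V, transcribed inside the organelle as long precursors from both strands, whereas all other subunits, and the whole of complex II and cytochrome c, are transcribed in the nucleus and imported.

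The libraries held 3316441 to 6818554 gene counts in cold-sensitive neurons and 5276233 to 5712983 in cold-insensitive neurons. Values are counts per 1000000 counts (CPM), with library sizes adjusted by the TMM method of edgeR, and every gene of the table had at least 4 counts in every library. The neuronal identity given by the labels was checked on 10 neuronal marker genes, of which 10 were measured and 0 were called different between the types (summed level 6588 to 9049 CPM in cold-sensitive and 6198 to 9448 CPM in cold-insensitive libraries). Of 8 markers of oligodendrocyte precursors, 4 were measured and 3 were called lower in cold-sensitive neurons (sum 28.4 to 67.7 CPM against 505 to 602 CPM). In pooled RNA, fewer cells of a type and less RNA per cell cannot be told apart, and the part of these cells in the results below was not tested. Defining markers of microglia, endothelium, mural cells and erythrocytes were not among the genes analysed here.

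The counting left out reads that map to several places, so sequence that the mitochondrially encoded genes share with other genes is shown first. Reads were paired, and a pair reaches beyond a single window. Mouse chromosome 1 carries a block of pseudogenes that copy part of the mitochondrial genome, and every 75-base window (the read length) of each transcript was searched for in all other annotated genes of GRCm38. The windows below show a gene that is copied almost whole, both edges of the copied block, and a gene with no window in another annotated gene. Copies that are not annotated were not searched. Capitals mark bases of the stretches shared with the chromosome 1 copy. The mt-Co3 window lies at chrM:8961-9035 on the forward strand and its copy, the pseudogene Gm28437, at chr1:24613543-24613617 on the reverse strand. The mt-Co1 window (chrM:6334-6453) spans the start of the shared stretch at base 1067 of the gene, the mt-Nd4 window (chrM:10983-11102) spans its end at base 876, and the mt-Cytb window lies at chrM:14679-14753, all on the forward strand.
mt-Co3: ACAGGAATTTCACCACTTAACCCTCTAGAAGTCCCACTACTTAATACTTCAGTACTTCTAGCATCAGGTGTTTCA
Gm28437: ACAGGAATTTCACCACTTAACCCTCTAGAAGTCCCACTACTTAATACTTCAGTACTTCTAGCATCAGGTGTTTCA
mt-Co1: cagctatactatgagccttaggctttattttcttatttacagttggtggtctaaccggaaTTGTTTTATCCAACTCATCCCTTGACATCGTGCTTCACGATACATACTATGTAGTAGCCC
mt-Nd4: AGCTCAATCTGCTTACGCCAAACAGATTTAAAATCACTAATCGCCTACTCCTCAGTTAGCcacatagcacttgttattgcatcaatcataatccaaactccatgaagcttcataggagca
mt-Cytb: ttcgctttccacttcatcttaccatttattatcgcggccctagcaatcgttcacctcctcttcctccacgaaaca
The mt-Co3 and Gm28437 windows are the same letter for letter. Of its windows, mt-Co3 shared 99.9% with other genes, mt-Nd3 97.8%, mt-Nd4 61.5%, mt-Co1 39.8%, mt-Nd2 5.71% and mt-Nd5 1.66%, whereas mt-Nd1, mt-Nd6 and mt-Cytb shared 0%. The genes mt-Co2, mt-Atp8, mt-Atp6 and mt-Nd4l, which lie between mt-Co1 and mt-Nd4 beside mt-Co3 and mt-Nd3, were not analysed here. Of their windows, mt-Co2 and mt-Atp6 shared 99.5% each and mt-Nd4l 98.7%, whereas mt-Atp8 shared 0%.

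Levels of the 9 mitochondrially encoded genes differed widely along the mitochondrial genome. Per kilobase of gene, averaged over the 6 libraries, mt-Cytb (the catalytic subunit of complex III) reached 4795 CPM, mt-Co1 (the catalytic subunit of complex IV) 4726 CPM and mt-Nd5 (a proton-pumping subunit of complex I) 4140 CPM. The complex I subunits mt-Nd1, mt-Nd2 and mt-Nd4 followed with 3784, 2863 and 1930 CPM per kilobase. Their ranges over libraries were wide, from 2135 to 7745 CPM per kilobase for mt-Cytb and 981 to 2914 for mt-Nd4, and neighbours in this order overlapped in range. Within libraries the order was clearer, with mt-Co1 above mt-Nd5, mt-Nd1 above mt-Nd2 and mt-Nd2 above mt-Nd4 in 6 of 6 libraries each, whereas mt-Cytb against mt-Co1 and mt-Nd5 against mt-Nd1 were above in 3 of 6. Below them came mt-Nd6 at 304 CPM per kilobase, the one protein gene of the opposite strand, then mt-Nd3 at 57.5 and mt-Co3 at 4.61 CPM per kilobase. The ranges of mt-Nd6 (104 to 541) and mt-Nd3 (15.0 to 133) overlapped, and that of mt-Co3 (1.96 to 11.4) lay below both. The value of mt-Co3, a core subunit of complex IV like mt-Co1, rested on 99 counts over all 6 libraries. The part of shared sequence in these levels was not tested. The last 14 bases of mt-Nd6 overlap mt-Nd5 on the other strand. The counting ignored strand, so RNA of the other strand over any part of mt-Nd6 would count for it too. The share of each strand in its counts was not measured.

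**Figure D1:**
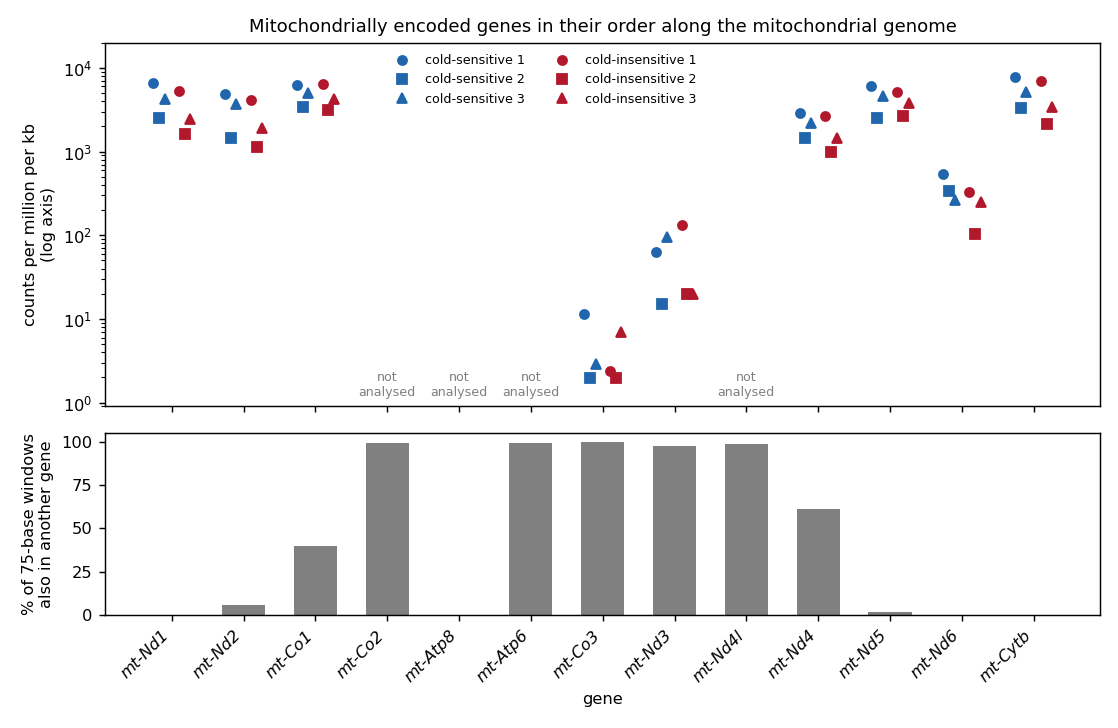
Upper panel, level of each mitochondrially encoded gene in each library (CPM per kilobase, log axis; blue, cold-sensitive; red, cold-insensitive; symbols, replicate numbers 1 to 3), in the order of the genes along the mitochondrial genome. Lower panel, percent of each gene's 75-base windows that also occur in another annotated gene. The measured genes inside the copied block, mt-Co3 and mt-Nd3, averaged 4.61 and 57.5 CPM per kilobase. At its edges and outside it, 6 genes averaged 1930 to 4795, and mt-Nd6, on the opposite strand, averaged 304.

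No respiratory chain gene was called different between the types of neuron. At an adjusted p of at most 0.05 (edgeR's quasi-likelihood test, Benjamini-Hochberg over 9583 genes), 0 of 91 genes were higher in cold-sensitive neurons and 0 lower, where 0.334% of all genes were called higher and 0.835% lower. An unadjusted p under 0.05 was reached by 6 of the 91 genes (6.59%), against 10.7% of all genes. DESeq2 and limma-voom also called 0 of the 91, with 5 and 4 of them at an unadjusted p under 0.05. The smallest adjusted p among the 91 genes was 0.386 from edgeR, for Ndufb2.

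Both kinds of gene nevertheless leaned in opposite directions. Of the mitochondrially encoded genes, 9 of 9 had a log2 fold change (cold-sensitive over cold-insensitive) above 0, with a median of 0.38, although mt-Nd3 turned to the other side with upper quartile scaling or library size alone. Of the nuclear encoded genes, 59 of 82 (72.0%) lay below 0, with a median of -0.20, where 49.9% of all genes lay below 0 and the median of all genes was 0.00. These are descriptions over genes that share their libraries, and no test was made of them. They rested in part on single libraries. Without cold-sensitive replicate 1 the median of the mitochondrially encoded genes was 0.02, with 5 of 9 above 0, and without cold-insensitive replicate 2 it was 0.09, with 6 of 9. Without cold-insensitive replicate 1 it was 0.97, with 9 of 9, and without cold-sensitive replicate 2 it was 0.63. Without cold-sensitive replicate 2 the median of the nuclear encoded genes was -0.01, with 44 of 82 below 0, and without cold-sensitive replicate 3 it was -0.37, with 64 of 82.

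**Figure D2:**
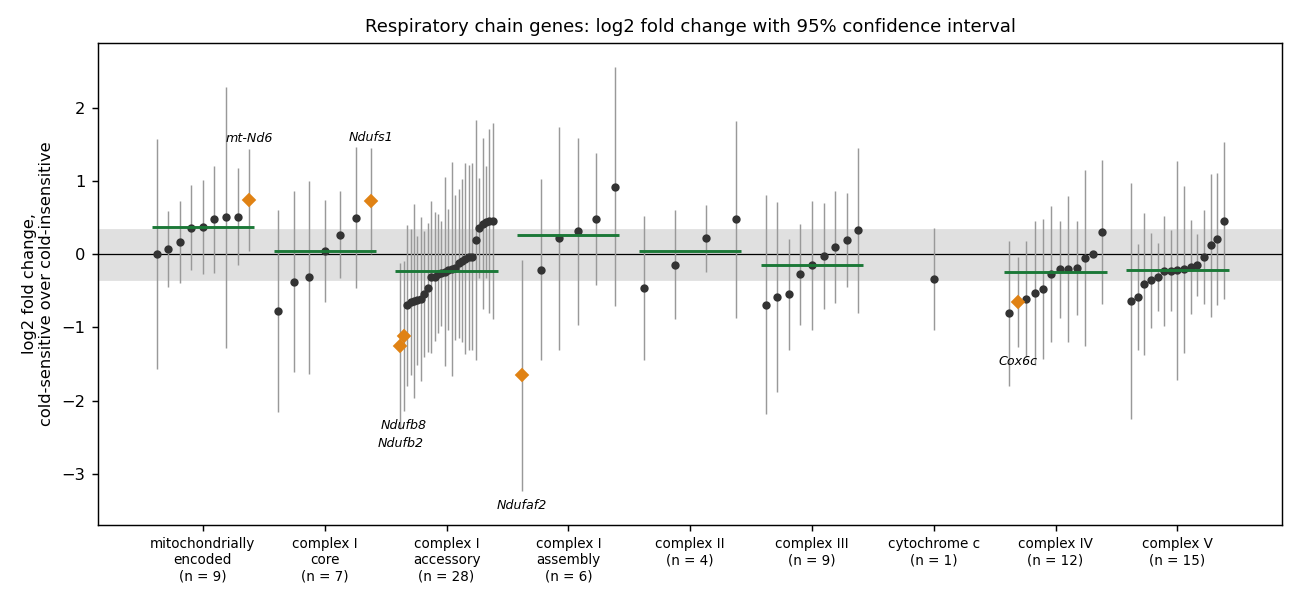
Points are log2 fold changes (cold-sensitive over cold-insensitive) of the 91 genes by complex, with the number of genes under each name. Vertical lines are 95% confidence intervals from edgeR, with none for Cox7b, whose log2 fold change was -0.00036. Green lines are medians of a class, the grey band spans the middle quartiles of all 9583 genes, and orange diamonds are the 6 genes at an unadjusted p under 0.05. The medians lie at 0.38 for the mitochondrially encoded genes and at -0.22, -0.23 and -0.22 for complex I accessory, complex IV and complex V genes.

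The mitochondrially encoded genes took 4.59%, 1.94% and 3.23% of all gene counts in cold-sensitive replicates 1 to 3, against 4.22%, 1.67% and 2.30% in cold-insensitive replicates 1 to 3. Cold-sensitive neurons averaged 3.25 ± 1.33%, against 2.73 ± 1.33% for cold-insensitive ones (SD, n = 3 each), so the types overlapped and their difference of 0.52 percentage points was smaller than either SD. The replicate number separated these libraries more than the type did, with number 1 highest and number 2 lowest in both types, although within each number the cold-sensitive library had the higher share. The nuclear encoded genes took 0.496%, 0.374% and 0.586% in cold-sensitive replicates and 0.577%, 0.512% and 0.560% in cold-insensitive replicates. Their means were 0.485 ± 0.106% and 0.549 ± 0.0338% (SD, n = 3 each). The 95% Wilson intervals of these shares were at most 0.0445 and 0.0149 percentage points wide for the mitochondrial and nuclear encoded genes. They cover counting error only. By the methods, RNA integrity and concentration varied among the samples. The methods give neither by library, and their part in these shares and in the ratio below was not tested.

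The 9 mitochondrially encoded genes thus gave several times as many counts as the 82 nuclear ones. The ratio of their summed counts was 9.25, 5.18 and 5.51 in cold-sensitive replicates 1 to 3 and 7.31, 3.26 and 4.11 in cold-insensitive replicates 1 to 3. It was higher in cold-sensitive neurons within each of the 3 replicate numbers, by 0.34, 0.67 and 0.43 on the log2 scale, while the types as wholes overlapped. The difference of the mean log2 ratios, 0.48, was close to the SD within the cold-sensitive (0.46) and cold-insensitive (0.60) libraries. The difference of the median log2 ratios, 0.43, became 0.0091 without cold-insensitive replicate 2, 0.17 without cold-insensitive replicate 3, 0.75 without cold-sensitive replicate 3 and 0.80 without cold-sensitive replicate 2. Most of the numerator came from genes at or outside the edges of the copied block, since mt-Co3 and mt-Nd3 added at most 8.98 and 46.3 CPM in any library.

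**Figure D3:**
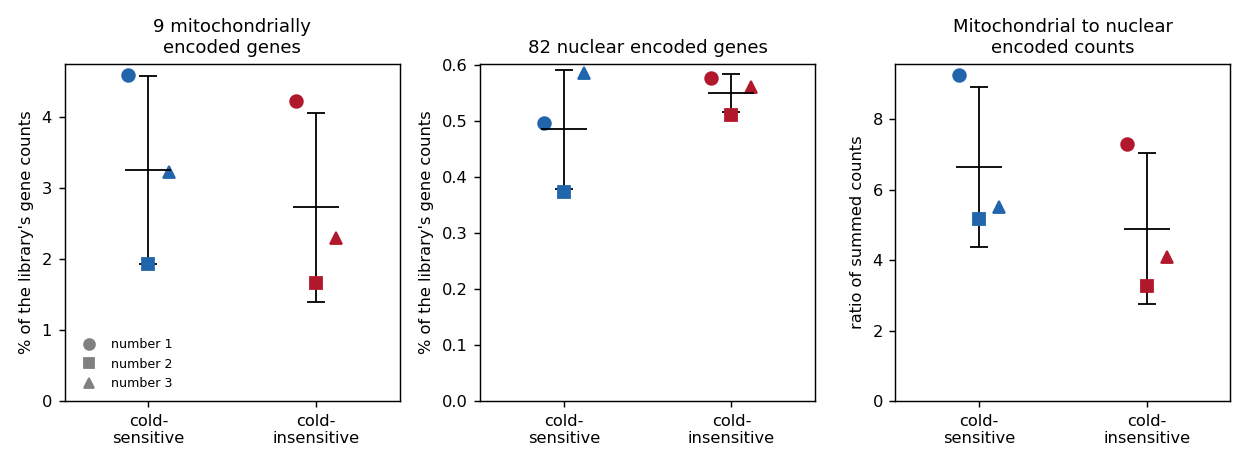
Percent of each library's gene counts in the 9 mitochondrially encoded genes (left) and the 82 nuclear encoded genes (middle), and the ratio of their summed counts (right), for cold-sensitive (blue) and cold-insensitive (red) libraries. Symbols are replicate numbers, and bars are mean ± SD of 3 libraries. Number 1 is highest and number 2 lowest in both types in the left panel, and the ratio spans 5.18 to 9.25 in cold-sensitive against 3.26 to 7.31 in cold-insensitive libraries.

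Among the mitochondrially encoded complex I genes, mt-Nd1, which forms part of the ubiquinone-binding module, had 6293, 2442 and 4064 CPM in cold-sensitive replicates 1 to 3 and 5011, 1545 and 2375 CPM in cold-insensitive replicates 1 to 3. It was higher in cold-sensitive neurons within every number, but the ranges overlapped (log2 fold change 0.52, standard error 0.32, adjusted p = 0.624 from edgeR). For mt-Nd2, a membrane-arm subunit, the values were 5063, 1507 and 3813 CPM against 4295, 1173 and 1980 CPM (log2 fold change 0.48). For mt-Nd4, another membrane-arm subunit, they were 4016, 1976 and 2990 CPM in cold-sensitive and 3639, 1352 and 1980 CPM in cold-insensitive libraries (log2 fold change 0.37). Both were higher in cold-sensitive neurons within each number, and both overlapped between the types. mt-Nd5 had 11080, 4547 and 8368 CPM in cold-sensitive and 9498, 4861 and 6950 CPM in cold-insensitive libraries (log2 fold change 0.17), so that number 2 went the other way. mt-Nd6 had the smallest p of the 9 genes, with 281, 176 and 135 CPM in cold-sensitive against 170, 53.8 and 129 CPM in cold-insensitive libraries (log2 fold change 0.74, 95% confidence interval 0.05 to 1.44, adjusted p = 0.406 from edgeR). Its groups overlapped, as cold-sensitive replicate 3 lay below cold-insensitive replicate 1. mt-Nd3 had 22.01, 5.23 and 32.8 CPM in cold-sensitive and 46.3, 6.85 and 6.88 CPM in cold-insensitive libraries, with no order between the types (log2 fold change 0.01).

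In complex III, mt-Cytb had 8860, 3840 and 5885 CPM in cold-sensitive and 7982, 2443 and 3900 CPM in cold-insensitive libraries (log2 fold change 0.38, standard error 0.31, adjusted p = 0.758 from edgeR), higher in cold-sensitive neurons within each number. In complex IV, mt-Co1 had 9519, 5268 and 7694 CPM in cold-sensitive and 9919, 4900 and 6506 CPM in cold-insensitive libraries. Its log2 fold change of 0.08 had a 95% confidence interval of -0.44 to 0.59, the narrowest of the 9 genes. mt-Co3 had 8.98, 1.54 and 2.25 CPM in cold-sensitive and 1.87, 1.54 and 5.50 CPM in cold-insensitive libraries, from 5 to 31 counts each. In the 6 abundant genes (mt-Nd1, mt-Nd2, mt-Nd4, mt-Nd5, mt-Co1 and mt-Cytb) number 1 was highest and number 2 lowest of both types in 6 of 6 genes. With the replicate number as a block in the edgeR fit, 5 of the 9 genes passed an unadjusted p of 0.05 (11.9% of all genes did), the smallest adjusted p was 0.0665 for mt-Nd1, and 0 were called.

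Nuclear encoded genes showed their own pattern across libraries. Cold-sensitive replicate 2 had the lowest value of its type in 58 of 82 nuclear encoded genes (70.7%), against 31.6% of all genes. Cold-insensitive replicate 2 was lowest of its type in 43 of 82 (52.4%), against 30.4% of all genes. Measured as the median deviation from each gene's mean over 6 libraries, on the log2(CPM + 0.5) scale, cold-sensitive replicates 1 to 3 lay at -0.02, -0.51 and 0.23 and cold-insensitive replicates 1 to 3 at 0.20, 0.03 and 0.18. The low values of cold-sensitive neurons as a group were thus concentrated in 1 library, in which 70 of the 82 genes lay below their mean.

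**Figure D4:**
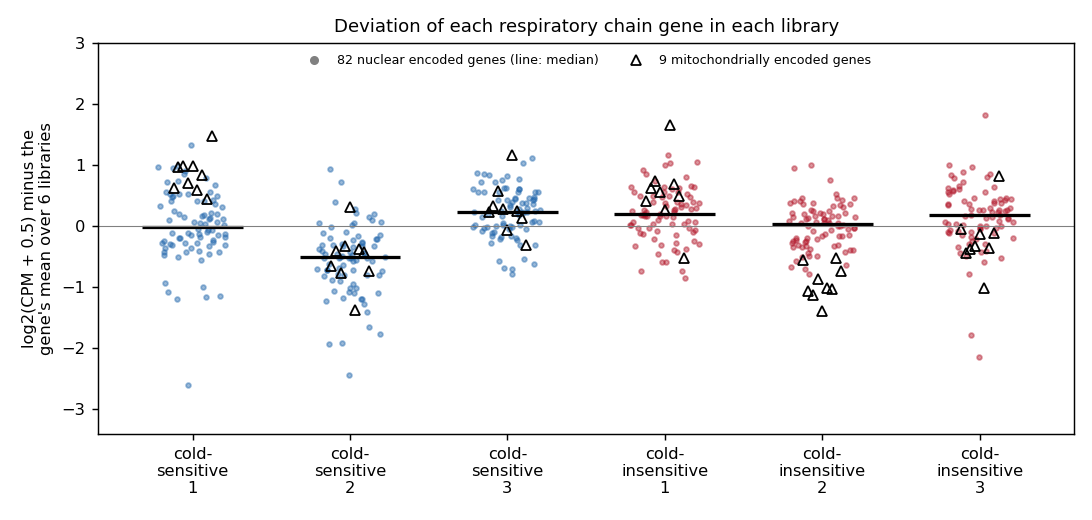
Deviation of each gene from its mean over the 6 libraries, log2(CPM + 0.5), in cold-sensitive (blue) and cold-insensitive (red) libraries, with filled points for the 82 nuclear encoded genes, black lines for their medians and open triangles for the 9 mitochondrially encoded genes. The nuclear median is lowest in cold-sensitive replicate 2 (-0.51), whereas the mitochondrial genes are lowest in cold-insensitive replicate 2 (median -1.02).

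Complex I has the most nuclear members, 7 core subunits that carry the flavin and iron-sulphur centres, 28 accessory subunits and 6 assembly factors. Their sum was 1611, 1151 and 1886 CPM in cold-sensitive and 1751, 1480 and 1715 CPM in cold-insensitive libraries, lower in cold-sensitive neurons within numbers 1 and 2 and higher within number 3. The core subunits had a median log2 fold change of 0.05 and 3 of 7 lay below 0, whereas 22 of 28 accessory subunits did (median -0.22). Within the accessory subunits, the NDUFB subunits of the membrane arm had 9 of 10 below 0 and a median of -0.50, a group set apart after the values were seen. Ndufv2, an iron-sulphur subunit and the most abundant nuclear member of complex I, had 141, 102 and 203 CPM in cold-sensitive and 114, 111 and 145 CPM in cold-insensitive libraries (log2 fold change 0.27). Ndufa10, an accessory subunit, had 64.0, 91.0 and 155 CPM against 71.7, 88.1 and 81.7 CPM (log2 fold change 0.37). Both overlapped between the types.

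The largest differences of complex I subunits were in Ndufb2 and Ndufb8, both accessory subunits of the membrane arm. Ndufb2 had 17.95, 17.5 and 15.3 CPM in cold-sensitive and 50.9, 20.6 and 49.3 CPM in cold-insensitive libraries (log2 fold change -1.25, standard error 0.55, adjusted p = 0.386 from edgeR). Ndufb8 had 23.2, 21.2 and 17.1 CPM against 39.5, 38.03 and 55.4 CPM (log2 fold change -1.11, standard error 0.50, adjusted p = 0.398 from edgeR). In both genes the types did not overlap, yet neither was called, and in Ndufb2 cold-insensitive replicate 2 lay near the cold-sensitive libraries. Ndufb2 (chromosome 6, 39592574 to 39603382, GRCm38) shares exon bases with Braf on the opposite strand and Gm42420, and Ndufb8 (chromosome 19, 44548572 to 44555440) with Gm20538, so their counts are uncertain where the genes overlap. Ndufs1, the largest iron-sulphur core subunit, was the one nuclear gene higher at an unadjusted p under 0.05 and is named because of that value. It had 100.2, 112 and 56.0 CPM in cold-sensitive and 56.9, 57.4 and 46.7 CPM in cold-insensitive libraries (log2 fold change 0.73, standard error 0.35, adjusted p = 0.457 from edgeR), and cold-sensitive replicate 3 lay inside the cold-insensitive range.

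The 6 measured complex I assembly factors, proteins that build the complex and then leave it, had a median log2 fold change of 0.27. Ndufaf2, which assists a late step of assembly, had 1.45, 9.53 and 11.8 CPM in cold-sensitive and 17.7, 14.2 and 40.9 CPM in cold-insensitive libraries (log2 fold change -1.66, standard error 0.77, adjusted p = 0.432 from edgeR), the largest difference of the 91 genes and from low counts. Ndufaf3 had 19.4, 2.77 and 13.6 CPM against 4.77, 4.45 and 9.63 CPM, with overlapping types (log2 fold change 0.93). Ndufaf4 had 50.7, 49.2 and 54.7 CPM in cold-sensitive and 31.7, 27.2 and 51.7 CPM in cold-insensitive libraries (log2 fold change 0.48). Ndufaf1 had 18.5, 12.9 and 33.7 CPM against 36.8, 22.8 and 15.9 CPM (log2 fold change -0.21). Assembly factors outside the symbol rule, a list of 41 genes of which 29 were measured, had 18 of 29 above 0 and a median of 0.13, with 0 called.

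Complex II, succinate dehydrogenase, has 4 subunits, all nuclear. Sdha, its flavoprotein, was the third most abundant nuclear member by CPM, with 302, 318 and 347 CPM in cold-sensitive and 280, 220 and 330.0 CPM in cold-insensitive libraries (log2 fold change 0.22, standard error 0.22, adjusted p = 0.821 from edgeR). The iron-sulphur subunit Sdhb averaged 67.1 ± 17.7 CPM in cold-sensitive pools, against 73.8 ± 25.05 CPM in cold-insensitive pools (SD, n = 3 each). The membrane anchors Sdhc and Sdhd averaged 22.6 ± 12.9 and 35.6 ± 17.2 CPM in cold-sensitive neurons, against 16.3 ± 6.45 and 49.0 ± 18.7 CPM in cold-insensitive neurons. All 4 overlapped between the types. Summed over the complex, the subunits had 446, 402 and 495 CPM in cold-sensitive and 417, 362 and 469 CPM in cold-insensitive libraries. The sum was higher in cold-sensitive neurons within each number, which held for the nuclear sum of no other complex. Sdha gave most of each sum, and 2 of the 4 subunits had a log2 fold change below 0.

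In complex III, 6 of 9 nuclear genes lay below 0 and the median was -0.15. Uqcrh, the hinge protein, had 64.9, 41.5 and 128 CPM in cold-sensitive and 70.2, 121 and 154 CPM in cold-insensitive libraries (log2 fold change -0.55), and Uqcrc1, a core protein, had 71.2, 111 and 118 CPM against 103, 94.2 and 64.6 CPM (log2 fold change 0.20). The small subunits Uqcr11 and Uqcr10 had the largest differences, with log2 fold changes of -0.69 (95% confidence interval -2.19 to 0.82) and -0.58 (-1.88 to 0.72). Cycs, the cytochrome c that carries electrons from complex III to complex IV, had 80.8, 46.7 and 140 CPM in cold-sensitive and 114, 124 and 100.4 CPM in cold-insensitive libraries (log2 fold change -0.33), and 23.9% of its windows occur in other genes. None of these genes separated the types.

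In complex IV, cytochrome c oxidase, 11 of 12 nuclear genes lay below 0, with a median of -0.23, while the catalytic mt-Co1 lay near 0. The 11 include Cox7b, at only -0.00036, and Cox7a2l, which was classed as an assembly factor. The nuclear sum was 693, 415 and 857 CPM in cold-sensitive and 865, 714 and 891 CPM in cold-insensitive libraries, lower in cold-sensitive neurons within each number. Cox6c, a small structural subunit, had 71.8, 67.0 and 95.1 CPM in cold-sensitive and 125, 101 and 143 CPM in cold-insensitive libraries, with no overlap (log2 fold change -0.65, standard error 0.30, adjusted p = 0.415 from edgeR). Its exons share bases with Vps13b on the opposite strand. Cox8a had the largest difference, with 47.8, 11.1 and 50.9 CPM against 79.2, 44.9 and 68.9 CPM (log2 fold change -0.81, standard error 0.48, adjusted p = 0.601 from edgeR). Its cold-sensitive replicate 2 lay far under the other libraries, and the remaining ones overlapped. Cox4i1, the regulatory subunit of most tissues, had 90.9, 67.0 and 162 CPM in cold-sensitive and 125, 130 and 110.0 CPM in cold-insensitive libraries (log2 fold change -0.19).

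In complex V, the ATP synthase, 12 of 15 nuclear genes lay below 0, with a median of -0.22. The nuclear sum was 1594, 1366 and 1966 CPM in cold-sensitive and 1825, 1808 and 2047 CPM in cold-insensitive libraries, again lower within each number. Atp5a1 and Atp5b, the alpha and beta subunits of the catalytic head, were the most abundant nuclear members of all. Atp5a1 had 400.2, 485 and 518 CPM in cold-sensitive and 512, 508 and 532 CPM in cold-insensitive libraries (log2 fold change -0.15, 95% confidence interval -0.57 to 0.28). Atp5b had 408, 299 and 509 CPM against 434, 498 and 575 CPM (log2 fold change -0.31, 95% confidence interval -0.77 to 0.16). Atp5a1 averaged 157 and Atp5b 107 CPM per kilobase over the 6 libraries, against 4726 for mt-Co1.

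The types did not overlap in 6 of the 82 nuclear encoded genes, each lower in cold-sensitive neurons (7.32%, against 8.2% of all genes), and in 0 genes in the other direction (7.85% of all genes). They were Ndufb2, Ndufb8, Ndufaf2, Cox6c, Ndufb7 and Atp5g3, of which Ndufb7, an NDUFB subunit, is named because of this. The share of nuclear genes that separated the types was thus near that of all genes. Of the 9 mitochondrially encoded genes, 0 separated the types.

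**Figure D5:**
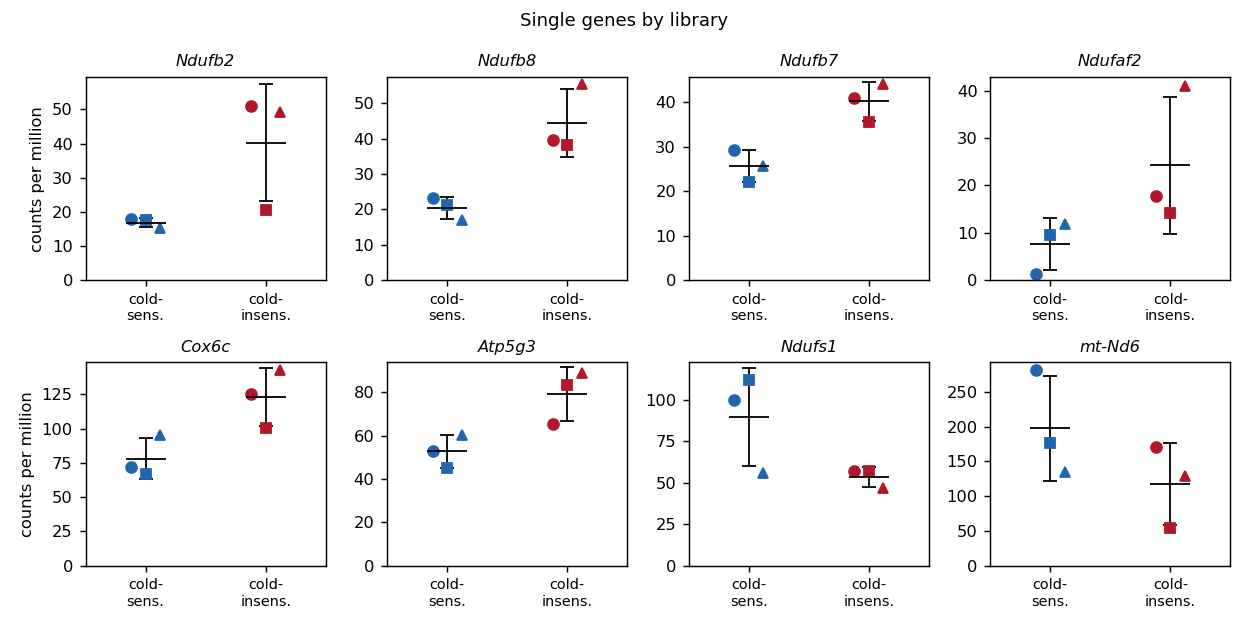
Levels (CPM) in cold-sensitive (blue, left) and cold-insensitive (red, right) libraries of the 6 nuclear genes whose types did not overlap, and of Ndufs1 and mt-Nd6, which were higher at an unadjusted p under 0.05. Symbols are replicate numbers and bars are mean ± SD of 3 libraries. Ndufb8 spans 17.1 to 23.2 CPM in cold-sensitive against 38.03 to 55.4 CPM in cold-insensitive libraries.

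Several subunits have paralogs used in different tissues, and the measured ones were the widely expressed forms, Cox4i1, Cox6a1, Cox6b1, Cox7a2, Cox7a2l, Cox8a and Ndufa4. The paralogs Cox4i2, Cox6a2, Cox6b2, Cox7a1, Cox8b and Ndufa4l2 were not analysed here. Cox6a1, Cox6b1 and Cox7a2 had log2 fold changes of -0.47, -0.61 and -0.26, Cox7a2l, which helps complexes III and IV associate, had -0.53, and Ndufa4, now counted to complex IV, had -0.19, all with overlapping types. Of the 3 genes for the same mature c-ring protein of ATP synthase, Atp5g3 reached 30.2 CPM per kilobase, Atp5g1 7.27 and Atp5g2 2.84 over the 6 libraries. Atp5g3 had 53.0, 45.2 and 60.4 CPM in cold-sensitive and 65.2, 83.3 and 88.8 CPM in cold-insensitive libraries (log2 fold change -0.58, standard error 0.35, adjusted p = 0.611 from edgeR). Atp5g1 had 46.9, 30.1 and 34.8 CPM against 41.2, 28.3 and 33.0 CPM (log2 fold change 0.12), and Atp5g2, of whose windows 35.8% are shared, had 2.55 to 4.92 CPM against 3.14 to 9.25 CPM.

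Nuclear respiratory chain genes are known to share promoter motifs, among them that of nuclear respiratory factor 1 (NRF1). The consensus motif of NRF1, searched on both strands in the 250 bases before and 50 after the start of each gene, occurred in 19 of 70 matched nuclear encoded genes (27.1%), against 12.6% of the other genes of the table and 5.19% of all genes with a RefSeq promoter. The motif CCGGAAG of ETS factors such as GABP occurred in 17 of 70 (24.3%), against 21.3% and 9.93%. The promoter of Cox6a1 (chr5:115348909-115349208, reverse strand, GRCm38.p6, RefSeq) is shown because it holds both, with 2 NRF1 matches and 1 ETS match (on the other strand), all in capitals.
Cox6a1: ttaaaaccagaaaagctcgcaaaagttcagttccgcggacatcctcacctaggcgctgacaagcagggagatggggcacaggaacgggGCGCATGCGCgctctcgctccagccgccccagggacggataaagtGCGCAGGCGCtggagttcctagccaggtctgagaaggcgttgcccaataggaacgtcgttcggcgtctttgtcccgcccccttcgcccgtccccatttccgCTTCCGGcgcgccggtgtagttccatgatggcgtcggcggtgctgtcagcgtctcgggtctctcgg
A match is a description of the letters, and nothing was measured here on the binding of either factor.

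Genes around the chain were measured in 9 lists. In each of them 0 genes were called in either direction, and the smallest adjusted p of any was 0.0976 from edgeR, among the mitochondrial carriers. Of 65 mitochondrial ribosomal proteins, which translate the mitochondrially encoded genes, 34 lay below 0 (median log2 fold change -0.04). Of 15 genes of mitochondrial transcription and its regulators 8 did (median -0.09), and of 14 genes of mitochondrial RNA processing 6 did (median 0.01). In the last list Ptcd3 had 131, 132 and 135 CPM in cold-sensitive and 200.0, 176 and 189 CPM in cold-insensitive libraries, without overlap (log2 fold change -0.50, standard error 0.25, adjusted p = 0.471 from edgeR). The tricarboxylic acid cycle, which feeds NADH and succinate to the chain, had 11 of 17 genes above 0 (median 0.14), and antioxidant enzymes 9 of 15 (median 0.17). Of 22 genes of glycolysis and lactate metabolism 13 lay below 0 (median -0.04), and Pfkp, the platelet-type phosphofructokinase, had 604, 501 and 625 CPM in cold-sensitive and 354, 374 and 331 CPM in cold-insensitive libraries (log2 fold change 0.71, standard error 0.21, adjusted p = 0.109 from edgeR). Mitochondrial carriers had 11 of 18 genes above 0 (median 0.13) and genes of fission, fusion and transport 7 of 14 (median -0.04).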

How the data were processed

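RNA was measured in 6 libraries of pooled POA neurons, 3 cold-sensitive and 3 cold-insensitive. Per the methods and the submitters' processing notes, the authors used Trimmomatic 0.36 for trimming, STAR 2.5.4b for alignment to the GRCm38 build, and counted reads over exons of protein-coding genes with featureCounts of Subread 1.6.2 at default settings, which ignore strand and leave out reads that map to several places. The deposited counts are the authors' raw counts per gene. The authors' normalized signal (CPM of the effective library size, with its mean per type) served as an alternative and for filters. The lowest normalized signal is 1.01 and the lowest count 4, so genes low in any library had been removed. The authors' fold change (a ratio) and p-value columns were deposited too and were not used.

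Counts were tested in R 4.3.3 with edgeR 4.0.16 (TMM, glmQLFit in legacy form, glmQLFTest, prior count 0.125, type as the only term), with Benjamini-Hochberg adjustment over 9583 genes. The common biological coefficient of variation was 42.2%. By the methods both types were collected from each coverslip, but equal replicate numbers are not said to pair them. Deviations of same-numbered libraries correlated at 0.0438 to 0.0552, under 0.1, so the block was an alternative. P-values measure the spread between pools.

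The symbol rule matched 91 of 108 reference symbols, and the other 17 were not analysed here. Exon models, lengths and shared windows came from GENCODE mouse release 21, promoters from RefSeq. Alternatives changed scaling, filter, tool (DESeq2 1.42.0, limma 3.58.1), dispersion, block and libraries. Named genes were the mitochondrially encoded ones, the most abundant and most changed of each complex, paralogs, and in each list the 2 most abundant and up to 4 called. The members and lists were chosen with earlier results of these data known. The fit was tested on simulated data with planted fold changes, all larger than the medians described here. That test does not bear on the recovery of changes as small as those medians.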

Additional observations from a re-analysis of the deposited data

How the results depend on the processing

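The counts of called members stayed at 0 under all 17 alternatives, and both medians kept their direction under each of them, as did the ratio of summed counts under the 12 alternatives run for it. Without members of which over 50% (mitochondrially encoded) or over 10% (nuclear encoded) of windows are shared, also chosen after seeing the data, the medians were 0.43 and -0.20. Among all genes, 32 were called higher and 80 lower in cold-sensitive neurons. DESeq2 called 79 and 152, the newer edgeR form 54 and 123, and leaving out single libraries 8 to 29 and 20 to 63. With both libraries numbered 2 left out, an alternative chosen after seeing the data, 1 and 7 were called. The replicate block (edgeR) changed no call of a member and moved the median log2 fold change to 0.43 for the mitochondrially encoded and to -0.26 for the nuclear encoded genes. The median log2 ratio of summed counts differed by 0.43 between the types, by 0.48 as the mean over replicate numbers (the block), and by 0.0091 to 0.80 with single libraries left out (lowest without cold-insensitive replicate 2).

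Signs of several uncalled genes changed, including some with larger differences, such as mt-Co3, Sdhc and Ndufa10. Upper quartile scaling, library size alone and a minimum mean of 10 CPM gave mt-Nd3 log2 fold changes of -0.0035, -0.045 and -0.0030. Without both libraries numbered 2, Cox4i1 had 0.11, Cycs 0.043, Ndufa4 0.18 and Sdhb 0.16. Single libraries left out gave ranges across 0 for Atp5g1 (-0.078 to 0.28), Cox4i1 (-0.63 to 0.059), Cox7a2 (-0.57 to 0.077), mt-Co1 (-0.14 to 0.39), mt-Co3 (-0.62 to 1.29), mt-Nd3 (-0.55 to 1.55), mt-Nd5 (-0.14 to 0.45), Ndufa10 (-0.055 to 0.61), Ndufa4 (-0.52 to 0.25), Ndufaf1 (-0.68 to 0.17), Ndufv2 (-0.019 to 0.48), Sdhb (-0.39 to 0.037) and Sdhc (-0.053 to 0.82). The cause was not tested. With 3 pools of each type the spread between pools limits precision, and in low genes such as mt-Co3 and Atp5g2 the counts limit it too.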

Other observations

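Levels of the mitochondrially encoded genes looked different when set against the sequence found in no other annotated gene, a measure chosen after the values were seen. Per 1000 windows of 75 bases that occur in no other annotated gene, averaged over the 6 libraries, mt-Co1 had 8250 CPM, mt-Nd4 5297, mt-Cytb 5126, mt-Nd5 4388, mt-Nd1 4102 and mt-Nd2 3270. On the same scale mt-Nd3 had 3337 CPM from 6 such windows and mt-Co3 3613 CPM from 1 such window. Both values lay inside the range of the other forward-strand genes, but with so few windows the scale is unreliable for them. mt-Nd6 stood apart at 354 CPM. Read pairs reach beyond a window, and the part of shared sequence in these counts was not tested.

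The cytosolic ribosomal proteins, another large set of small, abundant nuclear transcripts, leaned the way of the nuclear respiratory chain genes. Of 78 measured, 59 (75.6%) lay below 0, the median log2 fold change was -0.18, and 0 were called. At an unadjusted p under 0.05 from edgeR, 10 of them (12.8%) were lower in cold-sensitive neurons, against 5.66% of all genes. This set was chosen with its values known. They took 1.32%, 1.18% and 1.56% of counts in cold-sensitive replicates 1 to 3, against 1.56%, 1.49% and 1.86% in cold-insensitive replicates 1 to 3, lower in cold-sensitive neurons within each number.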
